A study of Mus musculus with 10 samples.

Results

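The core circadian clock genes of the mouse ovary were followed here as 10 genes: the activators Clock and Npas2, the repressors Per1, Per2, Per3, Cry1 and Cry2, the receptor genes Nr1d1 and Nr1d2, and the output gene Dbp. They were taken by gene symbol from the deposited table, where they are 10 of 55487 genes, and all 10 passed the filter on low counts. Transcripts were counted by RNA-seq in 10 whole ovaries. The Control group was 4 ovaries of mice aged 8 weeks (replicates 31, 32, 33 and 34). The Aged group was 3 ovaries of mice aged 11 months by the labels (replicates 31, 33 and 34); the study's methods give a somewhat younger age. The Aged+CF group was 3 ovaries of mice of that same age (replicates 30, 32 and 34) that were given 200 μL of cell-free fat extract (CEFFE, a liquid obtained from fat tissue with the cells removed) at 3 μg/μL. Every mouse had a C57BL/6J background and received 10 IU of PMSG, a gonadotropin that drives follicle growth, 48 h before the ovary was collected. By the study's methods CEFFE was injected repeatedly into the tail vein, and Control and Aged mice received saline in its place. The hour of the day at collection is not given in the sources used here. The study's methods name 3 biological replicates for the sequencing and do not say whether each ovary came from a separate mouse. The p-values measure the spread between these ovaries.

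The circadian clock is a loop of transcription that runs with a period of about a day in nearly every cell. CLOCK, or its relative NPAS2, pairs with BMAL1 (the product of Arntl) and activates genes through E-box elements in the DNA. Among these genes are the Per and Cry genes, Nr1d1, Nr1d2 and Dbp. PER and CRY proteins then block that activation, and NR1D1 and NR1D2 repress Arntl, so Arntl normally runs out of phase with Dbp. DBP acts on D-box elements, which NFIL3 also binds to the opposite effect. Clocks are known in granulosa, theca and luteal cells of the ovary, where they take part in the timing of ovulation and steroid synthesis.

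Promoter windows of 300 bases, from 250 before to 50 after the start site, were available from RefSeq (GRCm38.p6) for 9 of the 10 genes; Per2 was not matched. They were searched on both strands for the E-box CACGTG, the related E'-box CACGTT, the D-box TTATGTAA or TTACGTAA, and the RORE that NR1D1 and NR1D2 bind. Some genes have several windows, and the gene was counted where any of them held the motif. The first 3 sequences are those of Dbp, Nr1d2 and Per3. Within groups, Nr1d2 and Per3 correlated with Dbp by Pearson's r, which rested in part on the farthest ovaries. The last 2 are those of Per1 and Cry1, the members with an E-box in the window. Capitals mark the motifs found, in either orientation, and no 2 of them overlapped.
Dbp, chr7:45704997-45705296, plus strand: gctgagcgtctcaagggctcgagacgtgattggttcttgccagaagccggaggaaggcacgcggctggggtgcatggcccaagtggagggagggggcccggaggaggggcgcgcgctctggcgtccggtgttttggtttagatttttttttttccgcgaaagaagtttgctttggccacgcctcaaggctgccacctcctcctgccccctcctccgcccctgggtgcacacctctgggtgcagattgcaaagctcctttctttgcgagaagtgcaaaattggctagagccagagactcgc
Nr1d2, chr14:18239057-18239356, minus strand: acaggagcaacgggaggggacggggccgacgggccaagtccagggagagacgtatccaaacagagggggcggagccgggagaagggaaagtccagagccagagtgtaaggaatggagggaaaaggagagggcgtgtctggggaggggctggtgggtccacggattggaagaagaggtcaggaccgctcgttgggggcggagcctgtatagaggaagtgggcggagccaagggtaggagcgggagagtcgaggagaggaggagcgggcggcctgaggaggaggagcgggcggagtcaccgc
Per3, chr4:151044616-151044915, minus strand: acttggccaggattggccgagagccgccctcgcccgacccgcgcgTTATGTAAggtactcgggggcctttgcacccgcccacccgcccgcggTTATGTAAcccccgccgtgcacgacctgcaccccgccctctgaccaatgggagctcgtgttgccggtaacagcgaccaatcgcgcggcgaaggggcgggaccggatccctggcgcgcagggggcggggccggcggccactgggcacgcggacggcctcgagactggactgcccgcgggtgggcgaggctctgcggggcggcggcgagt
Per1, chr11:69098699-69098998, plus strand: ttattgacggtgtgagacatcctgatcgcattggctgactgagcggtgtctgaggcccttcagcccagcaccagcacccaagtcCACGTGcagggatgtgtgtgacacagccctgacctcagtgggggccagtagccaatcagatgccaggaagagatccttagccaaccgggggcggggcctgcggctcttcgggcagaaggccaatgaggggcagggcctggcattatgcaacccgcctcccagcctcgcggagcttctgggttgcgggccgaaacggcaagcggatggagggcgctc
Cry1, chr10:85185005-85185304, minus strand: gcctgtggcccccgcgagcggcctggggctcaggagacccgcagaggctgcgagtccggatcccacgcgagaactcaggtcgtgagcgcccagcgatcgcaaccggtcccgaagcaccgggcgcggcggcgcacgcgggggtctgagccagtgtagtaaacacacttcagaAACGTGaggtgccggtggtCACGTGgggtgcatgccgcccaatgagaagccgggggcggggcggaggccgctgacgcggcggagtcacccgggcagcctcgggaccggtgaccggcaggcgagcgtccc
The E-box was in 2 of 9 genes, Per1 and Cry1, against 8.09% of the 27025 genes in the promoter table (7.15% of all windows). The E'-box was in 3 genes, Cry1, Cry2 and Nr1d1, against 5.44% of genes (4.68% of windows). The D-box occurred only in Per3, at 2 places, and in 1.23% of all genes (1.06% of windows). No RORE was in any member's window, and 0.459% of genes had one (0.384% of windows). The windows of Dbp and Nr1d2 held none of these motifs, and sequence outside the windows was not searched.

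Depth was between 15761789 and 21318254 counts per ovary. Levels are given as CPM, counts relative to the library total, which was scaled by TMM, a factor that corrects for library composition. Npas2 was covered by 34 to 153 counts per ovary and the other 9 genes by 434 to 2950. The libraries were those of ovary by their markers, with granulosa markers such as Inha and Foxl2 present in every one. Amh, another granulosa marker, was at 3.25 CPM in Aged 34 and at 90.2 to 722 CPM in the other ovaries. Control 33 and Aged 34 stood apart by oviduct and ciliated-cell markers, whose 5 genes summed to 389.8 and 302.3 CPM against 1.98 to 32.7 CPM in the other 8 libraries. Control 32 stood apart by immediate early genes, and Aged 34 also by few oocyte and many lymphocyte transcripts. The spread between replicates over all genes, as edgeR's biological coefficient of variation, was largest in Aged, at 0.378, with 0.209 for Control and 0.193 for Aged+CF.

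To compare genes with each other, CPM was divided by the length of the gene's merged exons in kilobases (CPM per kb). On this level, Dbp came first in every group, with a mean of 34.6 ± 7.89 (SD, n = 4) in Control, against 36.9 ± 2.70 (n = 3) and 37.1 ± 11.9 (n = 3) in Aged and Aged+CF. Nr1d2 followed with 24.2 ± 1.73, 26.2 ± 2.65 and 26.4 ± 6.26 CPM per kb, and Nr1d1 was close to it with 23.5 ± 1.50, 29.2 ± 5.32 and 20.1 ± 6.70, above it in Aged and overlapping it in each group. The middle of the order held Per1, Cry2, Per2, Cry1 and Per3, whose group means lay between 7.69 and 14.8 CPM per kb. Clock came ninth, at 5.64 to 7.95, and Npas2 last, at 0.709 to 1.67. In each group Npas2 lay below Clock in every ovary. In Control, Dbp also lay above Nr1d2 in every ovary and Per3 above Clock, while each other pair of neighbours overlapped. In Aged the neighbours that did not overlap were Nr1d2 and Per1, Cry2 and Cry1, and Clock and Npas2. In Aged+CF they were Nr1d1 and Per1, and Clock and Npas2. The deposited FPKM values, averaged over all 10 ovaries, put Nr1d1 first at 21.1, then Nr1d2 at 20.04 and Dbp at 18.2, while over the Aged+CF ovaries alone Nr1d2 (20.9) and Dbp (18.9) lay above Nr1d1 (17.9). They rest on a longer length for Dbp, 1.98 times its merged exons, than for Nr1d1, 1.14 times. A further limit on the level of Dbp is that 539 of its exonic bases, 18.0%, lie opposite exons of Sphk2 (mean 80.1 CPM), and 263 bases of Nr1d1 (8.55%) lie opposite Thra (mean 163 CPM). Whether the counting used strand is not stated.

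**Figure D1:**
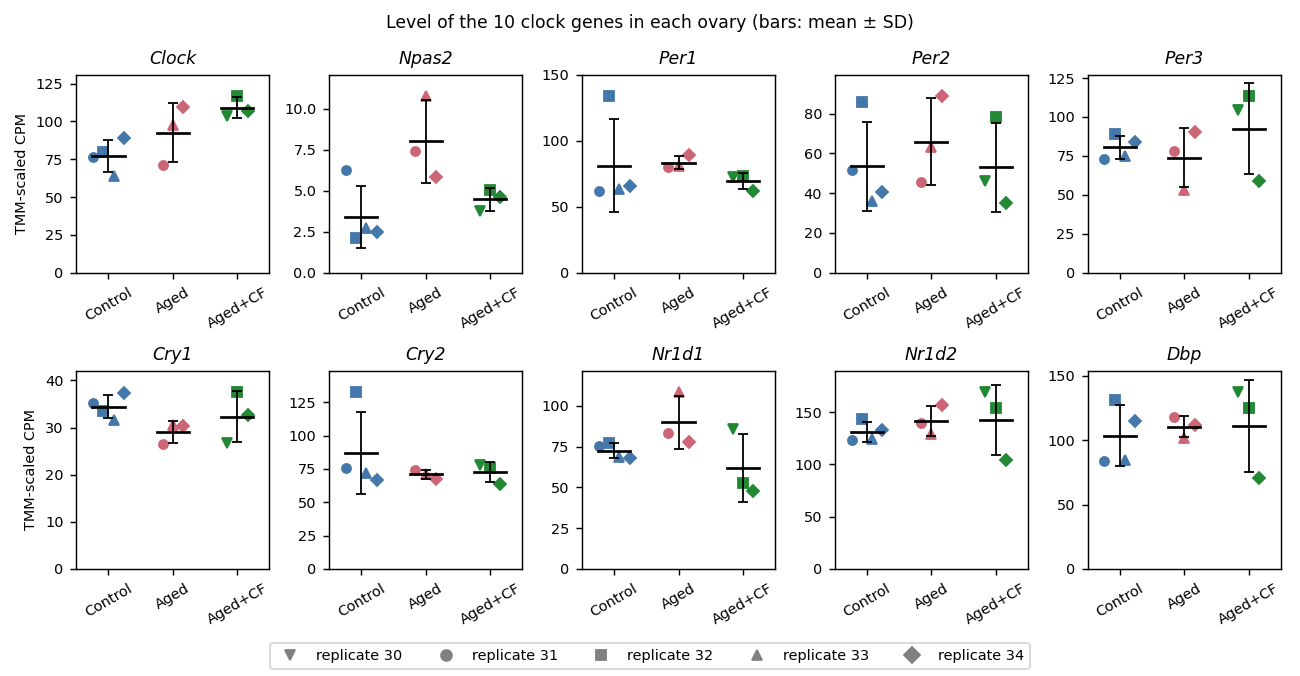
Level of each of the 10 clock genes in each ovary, in TMM-scaled CPM on linear axes that start at 0. Each point is 1 ovary, its shape gives the replicate number, and the bars are the group mean ± SD (n = 4 Control, 3 Aged, 3 Aged+CF). Npas2 reaches 10.8 CPM in Aged 33 and 6.24 CPM in Control 31, while Per1 and Cry2 have a single high Control ovary at 134 and 133 CPM.

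The comparison Aged vs Control asks how the clock genes differ between young and old ovaries. A gene was called where its fold was at least 1.5 and its adjusted p, from edgeR's quasi-likelihood test with Benjamini-Hochberg adjustment over 18956 genes, was under 0.05. None of the 10 clock genes was called, while 11.1% of all genes tested were. With the same fold and an unadjusted p under 0.05, 1 of 10 passed, Npas2, which was higher in Aged, against 18.2% of all genes in both directions and 8.79% in the higher direction. With no minimum fold it was also 1 of 10, against 31.6%. The 10 genes had a median log2 fold change of 0.11, beside -0.00 over all genes tested. The groups did not overlap for 2 of 10 genes, Cry1 and Nr1d1, against 27.5% of all genes.

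The comparison Aged+CF vs Aged asks what the extract changed in old ovaries, and it shares the Aged ovaries with the first. No clock gene was called, and 0.00528% of all genes tested, 1 gene, were. At an unadjusted p under 0.05, 0 of 10 passed with a fold of 1.5, against 7.96% of all genes, and 1 passed with no minimum fold, Nr1d1, against 16.3%. The members had a median of 0.01 on the log2 scale, beside -0.02 over all genes, and 2 of 10 genes did not overlap, Npas2 and Per1, against 18.6%. Without Aged 34, 0 of the 10 were called, against 556 of all genes (2.87%). By DESeq2's Wald test none of the 10 was called either, against 2.33% of all genes. Aged+CF vs Control shares its groups with the other comparisons. There none of the 10 was called, against 0.179% of all genes, and none passed at the unadjusted p with the fold, against 7.69%. With no minimum fold, 1 of 10 passed, Clock, against 14.3% of all genes, and Clock was also the 1 gene whose groups did not overlap, against 21.9%. The median there was 0.05, beside -0.03 over all genes.

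In the accounts of single genes, 3 values in a row belong to the comparisons in this order: Aged vs Control, then Aged+CF vs Aged, then Aged+CF vs Control.

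**Figure D2:**
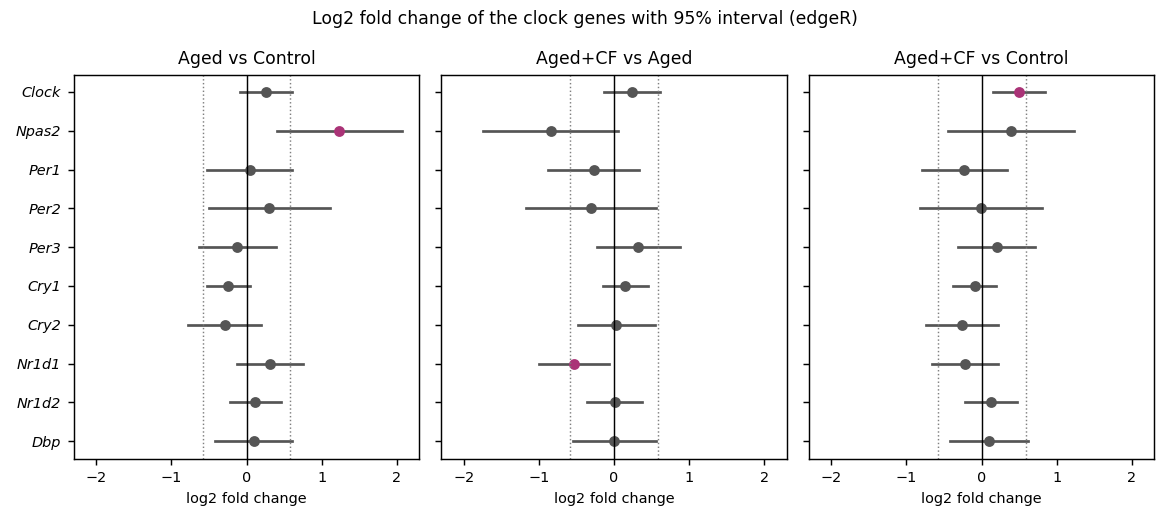
Log2 fold change of each clock gene in the 3 comparisons, with its 95% interval from edgeR. Points in purple have an unadjusted p under 0.05, and dotted lines mark a fold of 1.5 in each direction. The widest intervals are those of Npas2, from 0.40 to 2.07 in Aged vs Control, and of Per2.

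The activators Clock and Npas2 encode related partners of BMAL1. Npas2 (ENSMUSG00000026077, chr1:39193731-39363236, plus strand) was the clock gene with the largest difference. Its level was 6.24, 2.12, 2.74 and 2.49 CPM in Control 31, 32, 33 and 34. In Aged 31, 33 and 34 it was 7.40, 10.8 and 5.84 CPM, and in Aged+CF 30, 32 and 34 it was 3.73, 5.05 and 4.59 CPM. The Aged ovaries thus lay above 3 of the 4 Control ovaries and above all 3 Aged+CF ovaries, and Control 31 alone lay within the Aged range. In Aged vs Control Npas2 was higher by a log2 fold change of 1.23 (SE 0.37, 95% interval 0.40 to 2.07), a fold of 2.35, with adjusted p = 0.0514 by edgeR, which misses the threshold. Against Aged, the Aged+CF ovaries had a log2 fold change of -0.84 (SE 0.40, interval -1.74 to 0.05, adjusted p = 0.330). Against Control they had 0.39 (SE 0.38, adjusted p = 0.677). Npas2 passed the threshold in Aged vs Control when Control 31 was left out (log2 fold change 1.70, adjusted p = 0.0135) or Aged 34 (1.45, adjusted p = 0.0290), and over all alternatives its adjusted p ran from 0.0111 to 0.148.

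Npas2 stood beside a difference in luteal and steroidogenic markers. All 6 markers (Star, Cyp11a1, Hsd3b1, Lhcgr, Akr1c18 and Ptgfr, genes of luteal steroid synthesis, steroid breakdown and their control) were called higher in Aged vs Control, against 5% of all genes, and none was at 0 in any ovary. Their summed level ran from 6314 to 11282 CPM over the Control ovaries, from 14959 to 35425 CPM over the Aged and from 13626 to 21403 CPM over the Aged+CF ovaries. Within each group, the ovary with the highest sum, Control 31, Aged 33 and Aged+CF 32, was also the ovary with the highest Npas2. The markers did not all follow the sum. Lhcgr was at 234 to 785 CPM in Control, 1789 to 1967 CPM in Aged and 304 to 536 CPM in Aged+CF. It was highest in Aged 31 and Aged+CF 30, and the other markers in Aged 33 and Aged+CF 32. In Aged+CF vs Aged, 5 of the 6 had a negative log2 fold change, while Akr1c18 had 0.42 (adjusted p = 0.847 by edgeR). Other marker lists moved alongside, with 4 of 5 endothelial and 4 of 5 lymphocyte markers called higher in Aged vs Control. The endothelial sum was 295.7 to 372.0 CPM for Control, 433.9 to 570.5 CPM for Aged and 387.4 to 410.5 CPM for Aged+CF, highest in Control 31, Aged 33 and Aged+CF 34. The lymphocyte sum was 16.5 to 20.8 CPM for Control, 29.0 to 228.3 CPM for Aged and 33.05 to 34.4 CPM for Aged+CF, highest in Control 32, Aged 34 and Aged+CF 32. The part of the luteal, endothelial and lymphocyte markers in the Npas2 values was not tested. In whole ovaries, fewer cells of a type and less RNA per cell cannot be told apart.

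**Figure D3:**
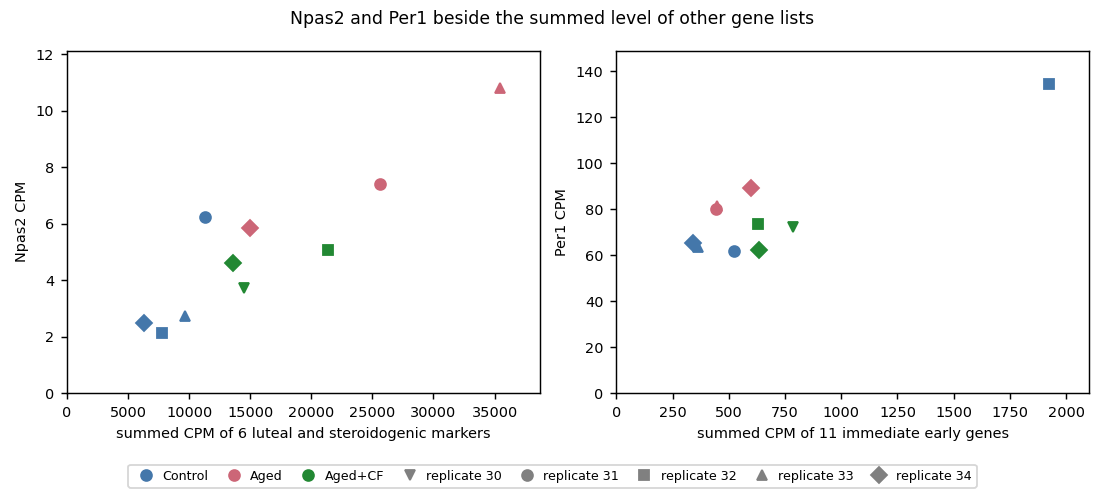
Left, Npas2 CPM against the summed CPM of 6 luteal and steroidogenic markers; right, Per1 CPM against the summed CPM of 11 immediate early genes. Each point is 1 of the 10 ovaries, coloured by group with a shape for the replicate number. Aged 33 has the most of both on the left (10.8 CPM beside 35425 CPM), and Control 32 on the right (134 CPM beside 1924 CPM).

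Clock (ENSMUSG00000029238, chr5:76209868-76304792, minus strand) encodes the other activator. Its level was 76.7, 79.9, 63.6 and 89.2 CPM in Control 31, 32, 33 and 34. It was 70.9, 97.6 and 109.6 CPM in Aged 31, 33 and 34, and 103, 117 and 107 CPM in Aged+CF 30, 32 and 34. The 3 Aged+CF ovaries lay above all 4 Control ovaries, and the Aged ovaries ran from within the Control range to within the Aged+CF range. Clock in Aged+CF vs Control had a log2 fold change of 0.50 (SE 0.15, interval 0.15 to 0.84), a fold of 1.41, with adjusted p = 0.206. The difference of Aged from Control was 0.26 (SE 0.15, adjusted p = 0.283), and that of Aged+CF from Aged 0.24 (SE 0.17, adjusted p = 0.501). With only Control and Aged+CF in the model, the adjusted p of the first was 0.0491, with a fold still under 1.5.

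The Per genes encode the repressors that accumulate after the activators have acted. Per1 (ENSMUSG00000020893, chr11:69095217-69109960, plus strand) had 61.6, 134, 63.6 and 65.3 CPM in Control 31, 32, 33 and 34. It had 80.2, 81.1 and 89.3 CPM in Aged 31, 33 and 34, and 72.3, 73.3 and 62.2 CPM in Aged+CF 30, 32 and 34. Control 32 was far above all other ovaries, and the Aged ovaries lay above all 3 Aged+CF ovaries by a small distance. Its log2 fold changes were 0.04 (SE 0.25, adjusted p = 0.934), -0.27 (SE 0.27, adjusted p = 0.645) and -0.23 (SE 0.25, adjusted p = 0.725). Without Control 32 the Aged vs Control value was 0.39 with adjusted p = 0.0431, under the minimum fold, and the Aged+CF vs Control value was 0.13.

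Per2 (ENSMUSG00000055866, chr1:91415982-91459324, minus strand), the paralog whose loss most disturbs the rhythm, varied widely within every group. It had 51.5, 85.7, 36.1 and 40.3 CPM in Control 31, 32, 33 and 34. It had 45.3, 63.1 and 89.0 CPM in Aged 31, 33 and 34, and 46.0, 78.1 and 35.1 CPM in Aged+CF 30, 32 and 34. The ratio of the highest to the lowest ovary was 2.37 in Control, 1.96 for Aged and 2.23 for Aged+CF, and the 3 groups overlapped. Per2 had log2 fold changes of 0.30 (SE 0.36, interval -0.50 to 1.11), -0.31 (SE 0.39, interval -1.17 to 0.55) and -0.01 (SE 0.36), with adjusted p of 0.614, 0.713 and 0.996.

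Per3 (ENSMUSG00000028957, chr4:151003652-151044665, minus strand), the paralog with the mildest known effect on the rhythm, had 73.2, 89.3, 74.9 and 84.1 CPM in Control 31, 32, 33 and 34. It had 78.2, 53.1 and 90.4 CPM in Aged 31, 33 and 34, and 104.5, 114 and 59.0 CPM in Aged+CF 30, 32 and 34. Aged+CF 30 and 32 held the highest levels, and Aged+CF 34 nearly the lowest. The groups overlapped, with log2 fold changes of -0.12 (SE 0.23), 0.32 (SE 0.25) and 0.20 (SE 0.23) and adjusted p of 0.773, 0.538 and 0.735.

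The Cry genes encode the repressors that act together with PER. Cry1 (ENSMUSG00000020038, chr10:85131700-85185064, minus strand) had 35.3, 33.5, 31.6 and 37.3 CPM in Control 31, 32, 33 and 34. It had 26.4, 30.6 and 30.2 CPM in Aged 31, 33 and 34, and 26.7, 37.5 and 32.6 CPM in Aged+CF 30, 32 and 34. Each Aged ovary lay below each Control ovary, but by a small distance, and the Aged+CF ovaries spanned both. Its log2 fold changes were -0.24 (SE 0.13, interval -0.53 to 0.04, adjusted p = 0.224), 0.15 (SE 0.14, adjusted p = 0.606) and -0.09 (SE 0.13, adjusted p = 0.779).

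Cry2 (ENSMUSG00000068742, chr2:92403646-92434043, minus strand) had 75.6, 133, 71.9 and 67.0 CPM in Control 31, 32, 33 and 34. It had 74.0, 71.4 and 67.5 CPM in Aged 31, 33 and 34, and 77.6, 75.9 and 63.8 CPM in Aged+CF 30, 32 and 34. Leaving Control 32 aside, the other 9 ovaries lay between 63.8 and 77.6 CPM. Cry2 had log2 fold changes of -0.29 (SE 0.22, adjusted p = 0.402), 0.03 (SE 0.23, interval -0.49 to 0.54, adjusted p = 0.962) and -0.26 (SE 0.22, adjusted p = 0.620). Without Control 32 the first was -0.01 and the last 0.02.

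Control 32 thus held the highest Per1 and Cry2 of all ovaries and the highest Per2 of its group. It was also the library with the highest summed level of 11 immediate early genes, which respond within minutes to hormones and other stimuli, at 1924 CPM against 340 to 523 CPM in the other Control ovaries, 443 to 598 CPM in Aged and 628 to 784 CPM in Aged+CF. Nr4a1, an immediate early gene that gonadotropins induce in the ovary, was at 831 CPM there and at 29.6 to 97.8 CPM elsewhere. Cyp19a1, the aromatase of granulosa cells, was at 351 CPM there and at 7.58 to 85.95 CPM elsewhere. Of the immediate early genes, Fosl1 was at or near 0 in every ovary and 0 of the 10 tested were called by edgeR in each comparison, with 2, 2 and 0 at an unadjusted p under 0.05. Over all genes, in the same order, the shares were 11.1%, 0.00528% and 0.179% called and 31.6%, 16.3% and 14.3% at that unadjusted p. Of the 10, 8 were lower in Aged vs Control (median log2 fold change -1.05, Control 32 included) and 9 higher in Aged+CF vs Aged (median 0.80). In Aged+CF vs Control 5 were higher and 5 lower. The groups did not overlap for 1, 5 and 1 of 10, against 27.5%, 18.6% and 21.9% of all genes. The part of these transcripts in the Per1 and Cry2 values was not tested.

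Nr1d1 (ENSMUSG00000020889, chr11:98767932-98775333, minus strand) and Nr1d2 (ENSMUSG00000021775, chr14:18204054-18239127, minus strand) encode REV-ERB alpha and beta, the receptors that repress Arntl. Nr1d1 had 75.3, 77.3, 68.8 and 68.1 CPM in Control 31, 32, 33 and 34. It had 83.6, 108 and 77.7 CPM in Aged 31, 33 and 34, and 85.6, 52.4 and 47.8 CPM in Aged+CF 30, 32 and 34. The Aged ovaries lay just above the Control ovaries, with 77.7 CPM as their lowest and 77.3 CPM as the highest Control. Aged+CF 32 and 34 held the lowest levels of all ovaries, whereas Aged+CF 30 lay within the Aged range. Nr1d1 in Aged+CF vs Aged had a log2 fold change of -0.54 (SE 0.21, interval -1.005 to -0.07, adjusted p = 0.257). Its value was 0.31 (SE 0.19, adjusted p = 0.306) for Aged vs Control and -0.22 (SE 0.20, adjusted p = 0.638) for Aged+CF vs Control. Leaving out 1 ovary at a time, the Aged+CF vs Aged value ran from -0.85 (without Aged+CF 30) to -0.38 (without Aged 33).

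Nr1d2 had 123, 143, 124 and 133 CPM in Control 31, 32, 33 and 34. It had 139.8, 129 and 157 CPM in Aged 31, 33 and 34, and 169, 154 and 104.5 CPM in Aged+CF 30, 32 and 34. The highest and the lowest level of all ovaries were both in Aged+CF. Its log2 fold changes were 0.12 (SE 0.15), 0.01 (SE 0.16, interval -0.36 to 0.37) and 0.12 (SE 0.15), with adjusted p of 0.650, 0.989 and 0.754.

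Dbp (ENSMUSG00000059824, chr7:45705088-45710203, plus strand), a direct target of the activators and a driver of rhythmic output genes, had 83.5, 132, 84.6 and 115 CPM in Control 31, 32, 33 and 34. It had 118, 102 and 112 CPM in Aged 31, 33 and 34, and 137, 125 and 70.4 CPM in Aged+CF 30, 32 and 34. The 3 group means, 104 ± 23.6 (SD, n = 4), 111 ± 8.08 (n = 3) and 111 ± 35.7 CPM (n = 3), differed by less than the spread within Control or Aged+CF. Dbp had log2 fold changes of 0.09 (SE 0.23, interval -0.42 to 0.61), 0.01 (SE 0.25, interval -0.55 to 0.56) and 0.10 (SE 0.23, interval -0.42 to 0.62), with adjusted p of 0.827, 0.993 and 0.885.

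The spread within groups was uneven between members. It is given as the coefficient of variation (CV, SD over mean) and its percentile among 16332 genes of 1 to 300 CPM. In Control, Npas2 had a CV of 56.3% (96.8th percentile), Per1 43.6%, Per2 42.1% and Cry2 35.5%, whereas Nr1d1, Cry1 and Nr1d2 were at 6.36 to 7.14%, with a median over all genes of 12.0%. The value of Npas2 rests largely on Control 31, at 6.24 CPM, and those of Per1 and Cry2 on Control 32, at 134 and 133 CPM. In Aged+CF, Per2 had 42.2%, Nr1d1 33.3%, Dbp 32.2% and Per3 31.7%, with a median over all genes of 11.5%. In Aged, Cry2 (4.59%), Per1 (5.99%) and Dbp (7.31%) were the least variable members, with a median over all genes of 20.6%.

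To see whether the members moved together between ovaries of a group, each ovary's log2 CPM was expressed as its deviation from the group mean, and the deviations of 9 members were correlated with those of Dbp over the 10 ovaries. Nr1d2 had Pearson's r = 0.90, with an exact permutation p = 0.00347 from 864 permutations within groups and 0.0313 after adjustment over the 9 relations (two-sided). Its Spearman's rho was 0.79, with an exact permutation p = 0.0104 and 0.0521 after adjustment. Per3 had r = 0.81, with an exact permutation p = 0.0104 and adjusted p = 0.0469, and rho = 0.76, with an exact permutation p = 0.0116 and adjusted p = 0.0521. The other 7 did not pass. The nearest was Per1 with r = 0.61 (exact permutation p = 0.0174, adjusted p = 0.0521), followed by Cry2 with 0.59, Per2 with 0.53 and Nr1d1 with 0.45. Clock had r = 0.18, Cry1 -0.13 and Npas2 -0.49, the last with an adjusted p of 0.202 by the exact permutation test.

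Aged+CF 34 had the farthest deviation of Dbp, -0.60, and also of Nr1d2, -0.42, and Per3, -0.59. When it and Control 31, the 2 ovaries with the Dbp deviation farthest from the median, were left out and the group means taken anew, r fell to 0.69 for Nr1d2 (exact permutation p = 0.0556, adjusted p = 0.250) and to 0.49 for Per3 (exact permutation p = 0.0972, adjusted p = 0.292). Both relations thus rest in part on those ovaries. Without Aged+CF 34 alone, r was 0.73 for Nr1d2 and 0.53 for Per3.

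**Figure D4:**
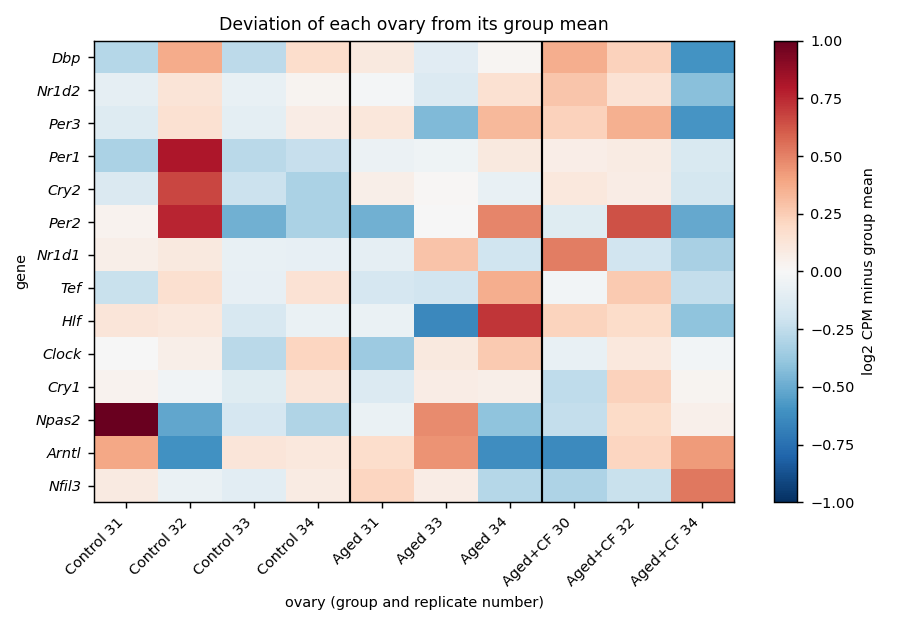
Deviation of each ovary from its group mean, in log2 CPM, for the 10 clock genes and 4 further clock genes (Tef, Hlf, Arntl and Nfil3). Red is above and blue below the group mean, and black lines part Control, Aged and Aged+CF. Aged+CF 34 is blue for Dbp (-0.60), Nr1d2 (-0.42) and Per3 (-0.59) and red for Arntl (0.42) and Nfil3 (0.53), and Control 32 is red for Per1, Cry2 and Per2.

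Among pairs of members, the highest correlations of the deviations were Per1 with Cry2 (r = 0.95), Per3 with Nr1d2 (0.92) and Nr1d2 with Dbp (0.90), and the lowest were Cry1 with Nr1d1 (-0.52) and Npas2 with Per1 (-0.52). In the first pair, Control 32 lay far above the other ovaries of its group for both genes. These 45 values share the same 10 libraries and are given as a description.

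Of the other clock genes, Arntl, the partner of Clock and Npas2, had 17.6, 8.79, 14.6 and 14.5 CPM in Control 31, 32, 33 and 34. It had 20.9, 25.3 and 12.0 CPM in Aged 31, 33 and 34, and 11.7, 21.1 and 24.5 CPM in Aged+CF 30, 32 and 34. It was lowest in Control 32, Aged 34 and Aged+CF 30, 3 ovaries in which Nr1d2 was the highest of its group. Its deviations correlated with those of Nr1d2 at r = -0.76 (exact permutation p = 0.0243, adjusted p = 0.122) and rho = -0.85 (adjusted p = 0.104). With Dbp the values were r = -0.66 (exact permutation p = 0.0660, adjusted p = 0.165) and rho = -0.65 (adjusted p = 0.177). With Npas2 they were r = 0.72 (exact permutation p = 0.0405, adjusted p = 0.135) and rho = 0.85 (exact permutation p = 0.00463, adjusted p = 0.0463). With Nr1d1, the other receptor gene, they were r = -0.32 (exact permutation p = 0.528, adjusted p = 0.586) and rho = -0.18 (exact permutation p = 0.720, adjusted p = 0.800). For the other 6 members r ran from -0.67 (Per3) and -0.66 (Per1) to 0.42 (Cry1), with -0.22 for Clock. No Pearson correlation with Arntl passed the adjustment over its 10 relations, a family chosen after its values were seen. Without Aged 34 and Aged+CF 30, the ovaries farthest from the median of Arntl, and with the group means kept, r was -0.62 with Nr1d2, -0.68 with Dbp and 0.72 with Npas2.

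**Figure D5:**
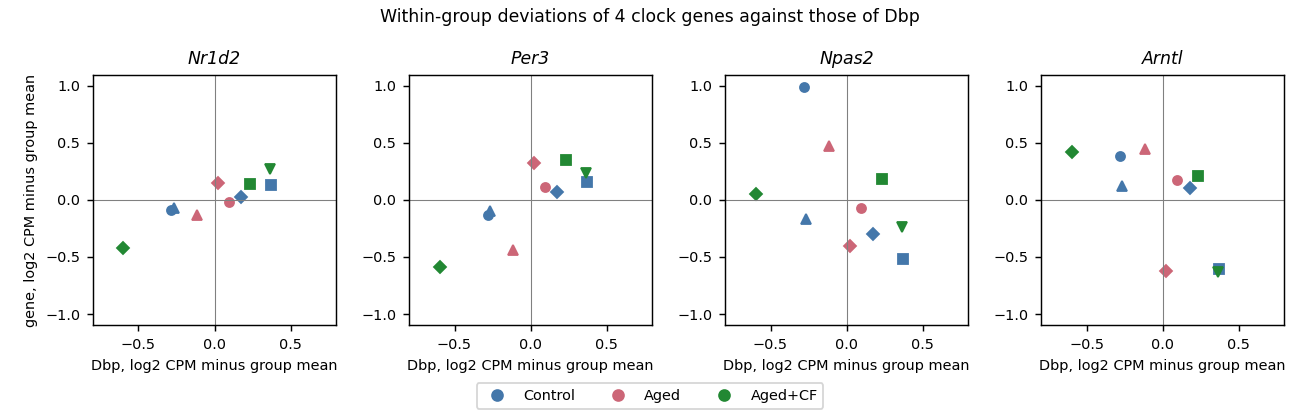
Deviation from the group mean, in log2 CPM, of Nr1d2, Per3, Npas2 and Arntl (vertical axes) against that of Dbp (horizontal axis). Each point is 1 of the 10 ovaries, coloured by group. Nr1d2 and Per3 rise with Dbp (r = 0.90 and 0.81), while Npas2 and Arntl have r = -0.49 and -0.66.

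Ranked over 16704 genes with a mean of at least 1 CPM, the genes whose deviations were most like those of Dbp over the 10 ovaries were Efcab7 (r = 0.99), Ube2e2 (0.97), Rps25 (0.96), Gm43305 (0.95) and Zfp687 (0.95). Nr1d2 was below these 5. Of the other clock genes, Csnk2a1, a casein kinase subunit, was at rank 44 (r = 0.81) and Tef, a PAR bZIP factor related to Dbp, at rank 418 (r = 0.61). Nfil3, which competes with Dbp at D-boxes, was at rank 16482 (r = -0.67) and Arntl at rank 16467, both near the other end. Nfil3 was highest in Aged+CF 34, at 25.2 CPM, the ovary with the lowest Dbp.

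The other genes of the pathway were 29: 5 activators and ROR receptors, 7 PAR bZIP and E-box output genes, and 17 kinases, ligases and cofactors. In Aged vs Control, 1 of 29 was called higher and 2 were called lower, beside 5% and 6.06% of all genes, and their median was 0.01 on the log2 scale. Timeless, a replication-fork protein that is also linked to the clock, fell by 1.36 on the log2 scale (SE 0.21, adjusted p = 0.00628), from 25.4 to 36.9 CPM in Control to 8.22 to 15.0 CPM in Aged. Gsk3b, a kinase that phosphorylates several clock proteins, fell by 1.33 (SE 0.28, adjusted p = 0.0159), from 80.3 to 151 CPM to 43.5 to 50.7 CPM. Bhlhe41, a repressor that competes for E-boxes, rose by 0.91 (SE 0.20, adjusted p = 0.0161), from 13.3 to 19.55 CPM to 26.2 to 32.03 CPM. The Control and Aged ovaries did not overlap for 9 of the 29, these 3 among them, against 27.5% of all genes. These 3 are named because they were called on the same counts, so their lack of overlap adds no support.

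In Aged+CF vs Aged, 0 of these 29 were called, while 3 passed higher and 2 lower at an unadjusted p under 0.05 with a fold of 1.5, against 3.91% and 4.05% of all genes. Timeless had a log2 fold change of 0.67 (adjusted p = 0.211), Gsk3b 0.93 (adjusted p = 0.203) and Bhlhe41 -0.83 (adjusted p = 0.168). Each of these has the sign opposite to that in Aged vs Control, but both comparisons use the same Aged ovaries. In Aged+CF vs Control, 0 of 29 were called, with 2 higher and 1 lower at the unadjusted p, against 3.33% and 4.36%. Oocyte markers were lower beside these genes in Aged, 7 of 8 called, against 6.06% of all genes called lower. Sums over the 8 genes were 276 to 371 CPM for Control, 7.61 to 77.0 CPM for Aged and 102 to 162 CPM for Aged+CF. Granulosa markers had 0 of 6 called, with sums of 3653 to 6355 CPM for Control, 2763 to 3233 CPM for Aged and 1964 to 3570 CPM for Aged+CF. The part of oocyte and granulosa markers in the levels of Timeless and Gsk3b was not tested.

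Glucocorticoids reset clocks in peripheral tissues, partly through Per1, so 10 genes that they induce were read alongside. In Aged vs Control 1 of 10 was called, Sgk1, an ion-transport kinase, higher by a log2 fold change of 1.19 (adjusted p = 0.0195), and in each of the other comparisons 0 were. The share called over all genes was 11.1% in Aged vs Control, 5% being higher. At an unadjusted p under 0.05 there were 2 of the 10 in each comparison, against 31.6% of all genes in the first, 16.3% when Aged+CF was set against Aged and 14.3% against Control. In Aged+CF vs Aged these 2 went opposite ways. Cdkn1a was higher (log2 fold change 1.45, adjusted p = 0.159 by edgeR) and Tsc22d3 lower (-0.44, adjusted p = 0.182). Cdkn1a was also higher in Aged+CF vs Control (1.52, adjusted p = 0.0719). Sums over the 10 genes were 1338 to 1628 CPM for Control, 1840 to 2807 CPM for Aged and 1723 to 1944 CPM for Aged+CF. Control 32, the ovary with the highest Per1, had the lowest sum, 1338 CPM. The part of these genes in the Per1 values was not tested.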

How the data were processed

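Total RNA of 10 whole ovaries was sequenced on an Illumina platform. The authors deposited a table of counts per Ensembl gene and FPKM values (fragments relative to gene length and library total) for the same ovaries. The submitters' processing notes name TopHat, Cufflinks 2.1.1 and GRCm38.p4; the counting program and its strand setting are not given in the sources used here. No duplicate library was found: the chi-square per gene between ovaries of a group was 17.3 to 117.

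Counts were tested with edgeR 4.0 (R 4.3) by the quasi-likelihood test over all 10 ovaries, with TMM, filterByExpr by group and a mean per group; 18956 genes passed and 18869 had no count. The log scale used a prior count of 2. DESeq2 1.42 was an alternative, and the design, thresholds (fold 1.5, 0.05) and named genes were set by rule: all 10 members, other clock genes called, and the 5 genes most like Dbp. Other genes named (such as Arntl, Nfil3, Tef, Hlf, Csnk2a1, Nr4a1, Sgk1 and Cyp19a1) were chosen after their values were seen. Members and gene lists were chosen with earlier results of these data known. The FPKM was used only for order of levels; per-kb levels used merged exons of GENCODE M21, which held 55227 of 55487 identifiers. The FPKM lengths were a median of 1.40 times those of the merged exons over 16333 genes with several transcripts. In simulated counts, 42% of genes changed by 2-fold and 88% changed by 4-fold were recovered in Aged vs Control (18628 genes), and 37% and 87% in Aged+CF vs Aged (18640 genes). In that setting 100 genes were changed at each fold, drawn from genes of at least 1 CPM, and all others were equal between groups. The shares are therefore not those expected for the clock genes in the real counts.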

Additional observations from a re-analysis of the deposited data

Results flagged for a closer look

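In the Control group of 4 ovaries, 3 single values stood far from the others, by a gap to the nearest ovary that exceeded Dixon's 95% critical value as a share of the group's range. Npas2 in Control 31 was 6.24 CPM, with a gap of 0.850 of the range. Per1 in Control 32 was 134 CPM, with a gap of 0.949. Cry2 in Control 32 was 133 CPM, with a gap of 0.869. Chance alone marks about 1 in 20 such groups, and 10 genes were read in the Control group. Groups of 3 ovaries were not tested in this way.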

How the results depend on the processing

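The count of clock genes called was 0 under every alternative run in both comparisons that involve Aged+CF. In Aged vs Control it was 1, Npas2, with DESeq2 size factors, with DESeq2's Wald test and at an unadjusted p, and it ran from 0 to 1 when ovaries were left out in turn, passing without Control 31 or Aged 34. For each change below, the cause was not tested. With the replicate block the counts were 0, 0 and 0 and the following log2 fold changes turned negative: Per3 -0.16, Cry2 -0.33, Nr1d2 -0.37 and Dbp -0.63 in Aged+CF vs Aged, and Per3 -0.17, Nr1d2 -0.16 and Dbp -0.34 in Aged+CF vs Control. Under that block Npas2 had -0.16 in Aged+CF vs Aged and 1.02 in Aged+CF vs Control, and Per2 had -0.96 in Aged+CF vs Aged. The labels do not say whether the numbers pair the ovaries. Same-numbered ovaries of different groups had correlations of their deviations from -0.18 to 0.15, too few to decide this. Aged and Aged+CF share a single number. Per2 in Aged+CF vs Control turned to 0.0176 with DESeq2 size factors, 0.0175 with the Wald test and 0.0182 with only 2 groups, where Nr1d2 and Dbp in Aged+CF vs Aged turned to -0.00577 and -0.00609. Without Control 33 and Aged 34, an alternative chosen after seeing the data, Per1 and Per2 in Aged vs Control turned to -0.0675 and -0.0853, Cry2 in Aged+CF vs Aged to -0.0197 and the correlation of Clock with Dbp to -0.00183.

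Leaving out 1 ovary at a time gave these lowest and highest log2 fold changes where the sign changed. In Aged vs Control, Per1 ran from -0.0703 to 0.39 and Per3 from -0.25 to 0.10. In Aged+CF vs Aged, Cry2 ran from -0.0336 to 0.11, Nr1d2 from -0.14 to 0.18 and Dbp from -0.19 to 0.24. In Aged+CF vs Control, Per1 ran from -0.34 to 0.13, Per2 from -0.40 to 0.31, Cry1 from -0.21 to 0.0489, Cry2 from -0.37 to 0.0189 and Dbp from -0.0558 to 0.37. The correlation of Cry1 with Dbp ran from -0.46 to 0.39. The number of genes whose correlation with Dbp passed was 2, and it was 0 without the 2 ovaries farthest in Dbp, 0 without Control 33 and Aged 34, and from 0 to 3 with 1 ovary left out, where fewer permutations exist; r stayed between 0.73 and 0.94 for Nr1d2 and between 0.53 and 0.89 for Per3. Over all genes, the count called in Aged+CF vs Aged went from 1 to 556 without Aged 34 and to 442 by the Wald test, and in Aged vs Control from 2096 to 80 with the replicate block. With 3 or 4 ovaries a group, a missed threshold does not show equal levels. The simulated recovery of 2-fold changes was 42% and 37%. It came from a setting with few changed genes and does not give the recovery for the clock genes here.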
